A study of Arabidopsis thaliana with 6 samples.

Results

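EXO (EXORDIUM, AT4G08950) and the expansin-like genes EXLA1 (AT3G45970) and EXLA2 (AT4G38400) are nuclear genes of Arabidopsis thaliana that encode proteins of the cell wall. They were taken as the probe sets that the platform annotation assigns to them, 1 each and 3 in all (255064_at, 252563_at and 252997_at), of 22746 probe sets without controls. They were chosen by their large measured falls between 30 and 40 °C, with all 6 signals known, so their changes between temperatures are described here with no test. The arrays were Affymetrix ATH1 arrays of whole seedlings in accession Col-0, with 1 array for each of 6 groups: an AtrbohB line with a dSpm transposon in At1g09090, which encodes an NADPH oxidase homologue, at 20, 30 and 40 °C, and wild type (stock N1092) at the same temperatures. All seedlings were grown on MS medium with 16 hour days and floated on distilled water at their temperature, for a time not given in the labels, and 90 plants were pooled per sample. The mutant is a single insertion line, no probe set is assigned to the disrupted gene in the annotation, and its level was not analysed here.

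EXO is a protein of the apoplast that promotes leaf and shoot growth, and its transcript is known to be raised by brassinosteroids, the plant's steroid growth hormones. Expansins loosen the cell wall without cutting its polymers and so let cells enlarge; the expansin-like A proteins share their domain build, but wall loosening by them is not established. Xyloglucan endotransglucosylase/hydrolases (XTH enzymes) cut and rejoin the xyloglucan chains that tie cellulose fibres together, and many respond to the same hormones and to touch or temperature.

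The deposited values are probe-set intensities, called signals here, which the authors scaled to a common level, with a mean of 100 on each array once 2% of values are trimmed at either end. Median signals ran from 38.5 to 44.0, and the 99th percentile was 1576, 1819 and 1833 in the mutant at 20, 30 and 40 °C, and 1563, 1598 and 1778 in wild type. Before log2 was taken, any signal under 13.7, the 25th percentile over the 6 arrays, was set to that value, called the floor here, which is not a detection limit. The array of the mutant at 40 °C carries the word repeat in its title and had the most outlier cells, 1163, against 299 to 754 on the others, and the part of this in the results was not tested. Levels of different probe sets have no common scale, so each gene is compared only with itself.

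All 3 genes had their highest signal at 30 °C and their lowest at 40 °C in both genotypes. EXO had signals of 377.5, 3103.8 and 60.9 in the mutant at 20, 30 and 40 °C, and 305.4, 2600 and 115.0 in wild type. The 30 °C arrays of both genotypes lay far above the other 4, and no array of 1 temperature overlapped with those of another. EXO was chosen with these signals known, so this describes the choice and carries no test. The share of all probe sets so separated is not given here. EXO was 8.22-fold higher at 30 than at 20 °C in the mutant and 8.51-fold in wild type. From there it was 51.0-fold lower at 40 °C in the mutant and 22.6-fold lower in wild type, which left 16.1% of the 20 °C signal in the mutant and 37.7% in wild type. Over both genotypes, the fitted log2 changes were 3.06 ± 0.26 at 30 against 20 °C, -5.09 ± 0.26 at 40 against 30 °C and -2.02 ± 0.26 at 40 against 20 °C (SE, 2 arrays against 2).

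EXLA1 had the largest step of the 3 between 20 and 30 °C. Its signals were 117.8, 1809.8 and 26.1 in the mutant at 20, 30 and 40 °C, and 112.1, 1342.6 and 75.9 in wild type. The genotypes lay close together at 20 °C and apart at 40 °C. EXLA1 was 15.4-fold higher at 30 than at 20 °C in the mutant and 12.0-fold in wild type. At 40 °C it was 69.3-fold lower than at 30 °C in the mutant and 17.7-fold lower in wild type. The mutant then kept 22.2% of its 20 °C signal and wild type 67.7%. The fitted changes were 3.76 ± 0.38, -5.13 ± 0.38 and -1.37 ± 0.38 in the same order (SE, 2 arrays against 2). The step in wild type alone from 20 to 40 °C was -0.56, close to the 0.54 that is the spread of a difference between 2 single arrays in the fit. The unlike steps of EXLA1 in the 2 genotypes enter that spread. With 1 array against 1, whether the 20 and 40 °C levels of wild type differ cannot be told. The lower signal at 40 than at 20 °C rests mainly on the mutant array: without the mutant at 40 °C the fitted change at 40 against 20 °C was -0.47, and without wild type at 40 °C it was -2.26.

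EXLA2 had the same order of temperatures and reached the floor at 40 °C. Its signals were 54.5, 599.1 and 5.4 in the mutant at 20, 30 and 40 °C, and 47.6, 490.9 and 15.5 in wild type. The mutant at 40 °C is below the floor and wild type at 40 °C just above it, so the size of the difference there is limited by the floor. The 30 °C signal was 11.0-fold higher than that at 20 °C in the mutant and 10.3-fold in wild type. At 40 °C the signal was at least 43.7-fold lower than at 30 °C in the mutant and 31.7-fold lower in wild type; against 20 °C it was at least 3.98-fold and 3.07-fold lower. The fitted changes were 3.41 ± 0.18, -5.22 ± 0.18 and -1.81 ± 0.18 (SE, 2 arrays against 2). Their SE and the sizes of both changes to 40 °C depend on the floor. With a floor at the 40th percentile the changes to 40 °C became -4.28 and -0.87, and with no floor -5.89 and -2.48.

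**Figure D1:**
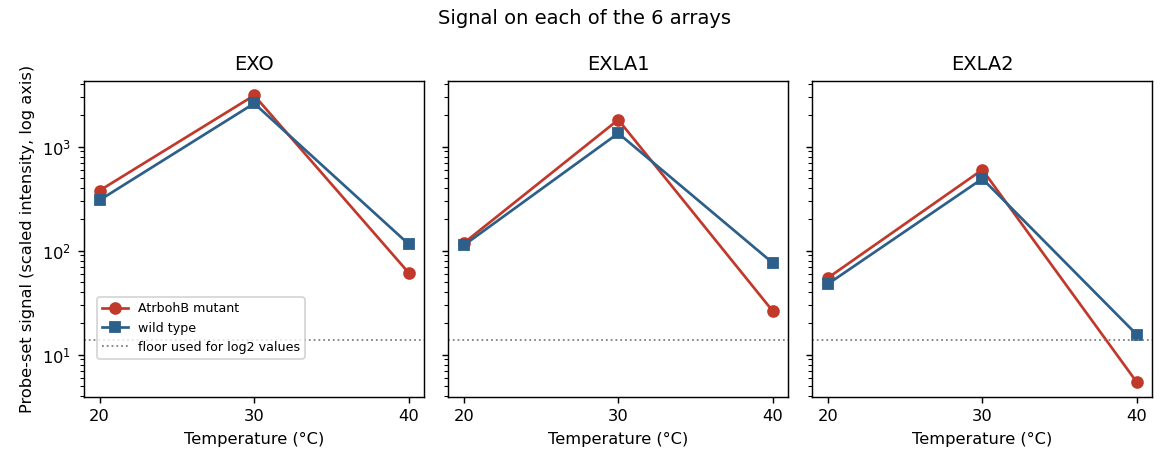
Signal of the EXO, EXLA1 and EXLA2 probe sets (log axis) on each of the 6 arrays, against temperature in °C; circles are the AtrbohB mutant, squares wild type, 1 array each, and the dotted line is the floor of 13.7. Every gene peaks at 30 °C in both genotypes, and the mutant lies above wild type at 20 and 30 °C and below it at 40 °C.

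Set against all 18227 probe sets tested (those above the floor on at least 2 arrays), the changes of these genes were among the extremes, which is how they came to be picked. By the fitted change at 40 against 30 °C, EXLA2 was in place 2 of all falls, EXLA1 in place 6 and EXO in place 7. At 30 against 20 °C, EXLA1 was in place 50, EXLA2 in place 73 and EXO in place 105 of all rises. At 40 against 20 °C they were less extreme, in places 145 for EXO, 243 for EXLA2 and 544 for EXLA1 of all falls. The median change of all tested probe sets was -0.07 at 30 against 20 °C, 0.15 at 40 against 30 °C and 0.08 at 40 against 20 °C, beside medians of 3.41, -5.13 and -1.81 for the 3 genes. Of all tested probe sets, 14.9% were called higher and 20.7% lower at 30 against 20 °C, 24.9% higher and 17.8% lower at 40 against 30 °C, and 13.5% higher and 14.7% lower at 40 against 20 °C (limma, Benjamini-Hochberg adjusted p under 0.05), so many other genes changed between the same temperatures.

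These genes were chosen by their changes between temperatures, and genotype was the only term of the design not used for this. The signals of both genotypes were known at the choice, so the test of genotype is not fully free of it. Over the 3 temperatures, EXO differed by -0.12 ± 0.21 (log2, mutant minus wild type, SE, 3 arrays against 3), with a 95% interval from -0.61 to 0.37 and a limma adjusted p of 0.989. EXLA1 differed by -0.35 ± 0.31, with an interval from -1.07 to 0.38 and a limma adjusted p of 0.985. EXLA2 differed by 0.10 ± 0.14, with an interval from -0.23 to 0.44 and a limma adjusted p of 0.989. Its SE and interval depend on the floor, to which its mutant array at 40 °C was raised. None of the 3 passed the test, and limma called 0 of 18227 probe sets (0%) for this comparison, with 735 (4.03%) at an unadjusted p under 0.05. The direction of the first and second values turns on the 40 °C arrays: without either the mutant or wild type at 40 °C, EXO had 0.28 and EXLA1 0.25. EXLA2 turned to -0.35 with no floor and to -0.04 on log2(value + 16).

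The sign of the genotype difference was not the same at each temperature. At 20 °C, mutant minus wild type was 0.31 for EXO, 0.07 for EXLA1 and 0.20 for EXLA2 on the log2 scale. At 30 °C it was 0.26, 0.43 and 0.29 in the same order, which is 1.19-fold, 1.35-fold and 1.22-fold higher in the mutant. At 40 °C it was -0.92 for EXO, -1.54 for EXLA1 and, with the mutant at the floor, -0.18 for EXLA2. The mutant thus had 53.0% of the wild-type signal of EXO and 34.4% of that of EXLA1. These are differences between single arrays with no test. Their spread in the fit is 0.37 for EXO, 0.54 for EXLA1 and 0.25 for EXLA2, and the same departures enter that spread. At 20 °C none of the 3 exceeds it, at 30 °C EXLA2 alone does, and at 40 °C EXO and EXLA1 do. For EXLA2, both the spread and the 40 °C difference are taken with its mutant array raised to the floor. How EXLA2 compares with its spread thus depends on the floor. With quantile normalization, the difference of EXO at 30 °C turned to -0.09.

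Beside all tested probe sets, the 40 °C difference of EXLA1 was in place 31 from the lowest, that of EXO in place 260 and that of EXLA2, with its mutant array at the floor, in place 4599. In the middle 90% of tested probe sets the difference at 40 °C ran from -0.58 to 0.53. With signals raised to the floor, EXLA1 was the 1 of the 3 genes at least 2-fold lower in the mutant at 40 °C, as were 1.09% of all tested probe sets. EXLA2 had deposited signals of 5.4 in the mutant and 15.5 in wild type there, so the floor alone keeps it out of this count. The 3 genes were above wild type at 30 °C and below it at 40 °C, as were 18.9% of tested probe sets at any size. The step from 30 to 40 °C was steeper in the mutant by 1.17 for EXO, 1.97 for EXLA1 and 0.47 for EXLA2; the values, as mutant minus wild type, are -1.17, -1.97 and -0.47, against -0.65 to 0.79 for the middle 90% of probe sets. EXLA2 lies inside that range, but its value is set by the floored mutant array and was -1.81 with no floor.

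Of the other expansins, 14 of 26 have a listed probe set, and all 14 passed the filter. They divided at 30 against 20 °C, with 2 higher, 6 lower and 6 not called and a median of -0.28 (limma, beside 14.9% and 20.7% of all probe sets). EXLA3, the third expansin-like A gene, which lies close to EXLA1 on chromosome 3, had signals of 6.8, 82.1 and 20.7 in the mutant at 20, 30 and 40 °C, and 8.5, 61.9 and 24.9 in wild type. Both 20 °C values lie under the floor, and it peaked at 30 °C, as EXLA1 and EXLA2 did. EXLA3 rose by 2.38 ± 0.23 at 30 °C (limma adjusted p = 0.000135), a size that depends on the floor and was 1.35 with the floor at the 40th percentile, and fell by 1.65 ± 0.23 from there to 40 °C (adjusted p = 0.000789). That fall was not called without the mutant at 40 °C (adjusted p = 0.0582). At 40 against 20 °C EXLA3 had 0.73 (limma adjusted p = 0.0490), where EXLA1 and EXLA2 had -1.37 and -1.81. The floor sets the size of this value, which was 0.00 with the floor at the 40th percentile and 1.58 with no floor. Its call was also lost on centring (limma adjusted p = 0.0704), with quantile normalization (0.095) and with a robust prior (0.0521).

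The alpha expansin EXPA16 was the other expansin that rose at 30 °C. Its signals were 14.1, 50.1 and 10.3 in the mutant at 20, 30 and 40 °C, and 12.4, 62.7 and 13.1 in wild type, at the floor on 3 arrays. It rose by 2.01 ± 0.20 (adjusted p = 0.000164) and fell by 2.03 ± 0.20 at 40 against 30 °C (limma adjusted p = 0.000132), and with the floor at the 40th percentile these were 1.01 and -1.01. EXPB3 and EXPA8, a beta and an alpha expansin, went the other way. EXPB3 had 196.2, 41.2 and 104.7 in the mutant, and 202.7, 55.7 and 98.7 in wild type. EXPB3 fell by 2.06 and EXPA8 by 1.69 at 30 °C, and rose by 1.09 and 1.40 from 30 to 40 °C; the later rise of EXPB3 was lost without the mutant at 40 °C (adjusted p = 0.0732). EXPA15 (-1.56) and EXPB1 (-1.32) also fell at 30 °C and rose at 40 °C (0.81 and 1.95). The rise of EXPA15 was not called without the mutant at 40 °C (adjusted p = 0.124) or without either 30 °C array (adjusted p = 0.11 without the mutant array, 0.1 without the wild-type array). The fall of EXPB1 was -0.45 and not called with the floor at the 40th percentile (adjusted p = 0.0912), where its rise was 1.07, nor was it called without the mutant at 30 °C, wild type at 30 °C or wild type at 20 °C (adjusted p from 0.0562 to 0.12).

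At 40 against 30 °C, 4 of the 14 were higher and 4 lower, with a median of 0.10, beside 24.9% and 17.8% of all probe sets. The 2 not yet named among the lower ones, EXLB1 (-0.81) and the root hair expansin EXPA7 (-0.81), lost the call with no floor and no filter (adjusted p = 0.0821 and 0.0551), EXLB1 also without any 1 array and EXPA7 without any 1 of the 30 or 40 °C arrays. At 40 against 20 °C, 1 was higher and 5 lower, with a median of -0.31, beside 13.5% and 14.7% of all probe sets. None of these 6 calls held without each array in turn. For single arrays left out, 2 of the 2 rises and 3 of the 6 falls at 30 °C held, and 2 of 4 rises and 1 of 4 falls at 40 against 30 °C.

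Of the 33 XTH genes, 10 have a listed probe set and 7 passed the filter; XTH21, XTH26 and XTH29 lay below the floor on all 6 arrays. At 30 against 20 °C, 4 of the 7 were higher and 1 lower, with a median of 1.60 (limma, beside 14.9% and 20.7% of all probe sets). At 40 against 30 °C, 1 was higher and 6 lower, with a median of -3.15, beside 24.9% and 17.8%. The 7 were above the floor on all 6 arrays. The other XTH genes were not tested, most for lack of a listed probe set, so these counts do not speak for the 33. XTH18 had signals of 45.5, 1690.8 and 59.3 in the mutant at 20, 30 and 40 °C, and 52.0, 1573.0 and 93.3 in wild type. It rose by 5.07 ± 0.17 at 30 °C and fell by 4.45 ± 0.17 from 30 to 40 °C, the largest changes among the 7. XTH16 had 174.5, 1135.6 and 48.9 in the mutant, and 144.3, 981.9 and 86.0 in wild type. It rose by 2.73 ± 0.24 and fell by 4.03 ± 0.24, with -1.29 at 40 against 20 °C (limma adjusted p = 0.00532). That last value was -0.76 without the mutant at 40 °C (adjusted p = 0.052), and its call was also lost without the mutant at 20 °C, the mutant at 30 °C or wild type at 30 °C (adjusted p from 0.0697 to 0.11).

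XTH19 had signals of 96.7, 275.8 and 32.5 in the mutant, and 82.8, 267.9 and 29.0 in wild type, with changes of 1.60 and -3.15. XTH33, an enzyme held at the cell surface, had 28.0, 216.8 and 17.3 in the mutant, and 14.3, 194.9 and 29.3 in wild type, with changes of 3.36 and -3.19; both calls were lost without the mutant at 30 °C (adjusted p = 0.0580 and 0.0515). EXGT-A3 (XTH27) had 0.25 at 30 °C and fell by 1.57 at 40 against 30 °C. XTH20 had 0.19 at 30 °C and fell by 0.98 at 40 against 30 °C, a call lost with the floor at the 40th percentile (-0.19, adjusted p = 0.249) and without the mutant at 40 °C or wild type at 30 or 40 °C. XTH32 went against the others, as it fell by 1.31 at 30 °C and had 0.47 at 40 against 30 °C, a call lost on centring (adjusted p = 0.0616) and without the mutant at 30 or 40 °C or wild type at 30 °C. At 40 against 20 °C, 5 of the 7 were lower and 1 higher, with a median of -0.85, beside 14.7% and 13.5% of all probe sets. The higher one, XTH18 at 0.61, was not called on centring (adjusted p = 0.0637). For single arrays left out, 3 of 4 rises and 1 of 1 fall at 30 °C held, 0 of 1 rise and 4 of 6 falls at 40 against 30 °C, and 0 of 1 rise and 2 of 5 falls, those of XTH19 and EXGT-A3, at 40 against 20 °C.

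**Figure D2:**
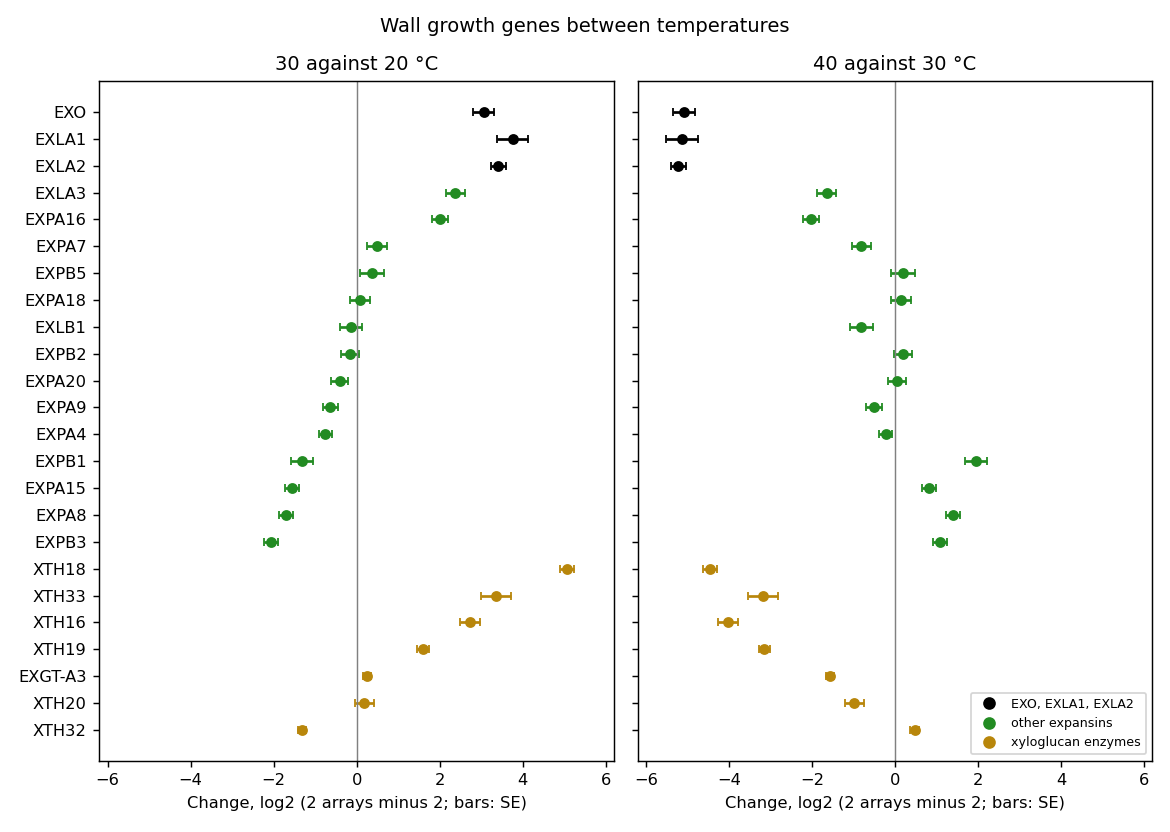
Fitted log2 change at 30 against 20 °C (left) and 40 against 30 °C (right) for EXO, EXLA1 and EXLA2 (black), the 14 other expansins (green) and the 7 XTH enzymes tested (gold); bars are the SE of 2 arrays against 2. EXLA3, EXPA16, XTH16, XTH18, XTH19 and XTH33 lie right of 0 on the left and left of 0 on the right, as the 3 genes do, while EXPB3, EXPA8, EXPA15 and EXPB1 lie the other way.

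In these 2 families, 14 other expansins and 7 XTH genes were tested. Of them, 6 genes were called higher at 30 against 20 °C and lower at 40 against 30 °C, and 5 the reverse (limma). Of all tested probe sets, 10.3% had the first pattern and 12.6% the second. EXLA3, XTH16, XTH18 and XTH33, 4 of the 6, had the mutant above wild type at 30 °C and below it at 40 °C, as did 18.9% of all tested probe sets, and the difference between these shares was not tested. At 40 °C mutant minus wild type was -0.81 for XTH16, -0.65 for XTH18, -0.76 for XTH33 and -0.27 for EXLA3. XTH19 had 0.16, and EXPA16 was at the floor in both. At 30 °C the differences were 0.21 for XTH16, 0.10 for XTH18, 0.15 for XTH33 and 0.41 for EXLA3, of which that of XTH18 turned to -0.09 with quantile normalization. None of these single-array differences has a test, and over the 3 temperatures no gene of the lists was called between mutant and wild type.

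**Figure D3:**
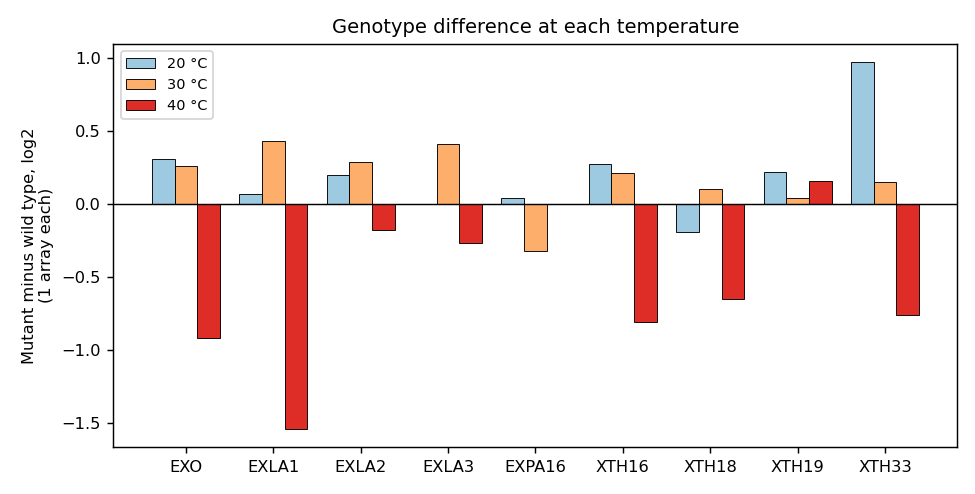
Log2 signal of the AtrbohB mutant minus wild type at 20, 30 and 40 °C (bars, 1 array each) for EXO, EXLA1, EXLA2 and the 6 expansin and XTH genes called higher at 30 and lower again at 40 °C. EXLA1 at 40 °C (-1.54) and EXO at 40 °C (-0.92) are the lowest bars; EXLA3 at 20 °C and EXPA16 at 40 °C are 0 because both arrays lie at the floor.

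Of the brassinosteroid genes, few can be read. Of 12 signalling genes, BIM1 and BRL1 have a listed probe set; BRL1, a receptor related to the hormone receptor BRI1, was above the floor on 1 array and was not tested. BIM1, a transcription factor that acts with the brassinosteroid factor BES1, had signals of 130.2, 94.8 and 64.5 in the mutant at 20, 30 and 40 °C, and 112.2, 89.1 and 54.9 in wild type. It was lower at each higher temperature, with -0.40 at 30 against 20 °C, which was not called (limma adjusted p = 0.0681), -0.63 at 40 against 30 °C (adjusted p = 0.00941) and -1.02 at 40 against 20 °C (adjusted p = 0.00148). The call at 40 against 30 °C was lost without each of the 30 and 40 °C arrays (adjusted p from 0.0714 to 0.0900), and that at 40 against 20 °C without the mutant at 40 °C (0.0622) or wild type at 40 °C (0.0710). BIM1 thus did not peak at 30 °C. The annotation lists no probe set of its own for the 7 other EXO family genes, the 10 enzymes of brassinosteroid synthesis and inactivation, the 10 response genes, the 4 genes known to depend on EXO, or the 4 touch genes, which were not analysed here.

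The genes nearest to each of the 3 were sought by the root mean square distance between log2 profiles over the 6 arrays, each centred on its own mean, among 6193 other genes with a signal of 4 times the floor or more on any array. Nearest to EXO were GAT1_2.1, a glutamine amidotransferase, at 0.22, EXLA2 at 0.26, EXLA1 at 0.38, AT1G33055 at 0.40 and XTH16 at 0.44. Nearest to EXLA1 were EXO and GAT1_2.1, both at 0.38, AT2G39980 at 0.43, EXLA2 at 0.44 and XTH16 at 0.55. Nearest to EXLA2 were EXO at 0.26, GAT1_2.1 at 0.35, AT1G33055 and AT1G17620, both at 0.42, and EXLA1 at 0.44. The 3 genes were chosen by their changes on these same arrays, so their nearness to each other largely restates that choice, and by Pearson correlation none of them was among the 5 nearest of another. GAT1_2.1 was the 1 further gene near all 3 by distance.

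GAT1_2.1 had signals of 106.0, 804.4 and 11.7 in the mutant at 20, 30 and 40 °C, and 54.3, 703.9 and 29.3 in wild type, the same order of temperatures and the same crossing of the genotypes at 40 °C. AT2G39980 had 87.2, 1019.1 and 27.9 in the mutant, and 123.7, 674.4 and 68.7 in wild type. AT1G33055 ended at the floor at 40 °C, with signals of 12.4 in the mutant and 10.7 in wild type. AT1G17620 had 41.6 in the mutant and 37.3 in wild type at 40 °C, and so lacks the lower mutant signal of EXO and EXLA1. These distances describe 6 arrays that share their scaling, and carry no test.

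**Figure D4:**
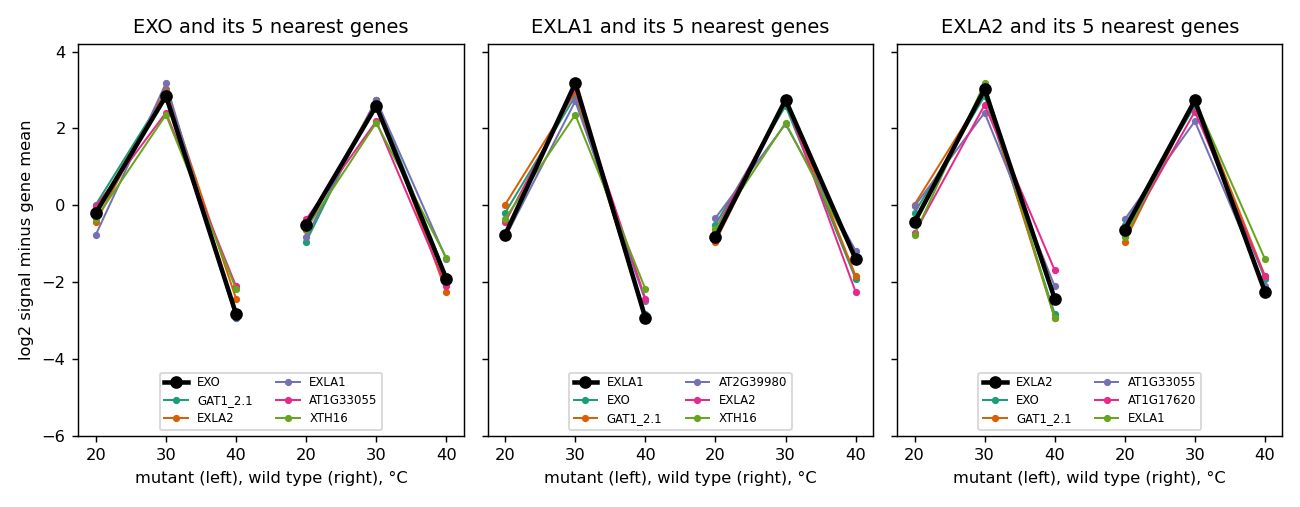
Log2 signal minus the gene's own mean over the 6 arrays, for each of EXO, EXLA1 and EXLA2 (thick black) and its 5 nearest genes (thin lines), in the mutant (left set of 3 temperatures) and wild type (right set). All lines peak at 30 °C and are lowest at 40 °C.

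Markers of seedling organs moved between the same temperatures. The 6 measured photosynthesis genes were all above the floor on every array, and their summed signal was 12877, 13146 and 17303 in the mutant at 20, 30 and 40 °C, and 12115, 11234 and 16833 in wild type. Of these 6, 5 were called higher at 40 against 30 °C (limma), beside 24.9% of all probe sets. The 3 root genes PYK10, EXPA7 and EXPA18 were above the floor on every array. Their summed signals, 2756, 2229 and 851 in the mutant and 2645, 2083 and 916 in wild type, are nearly all PYK10 and add up probe sets with no common scale. PYK10, a beta-glucosidase of roots, fell by 1.34 at 40 against 30 °C (limma adjusted p = 4.14e-05). EXPA7 had signals of 37.0, 41.8 and 23.7 in the mutant at 20, 30 and 40 °C, and 29.8, 51.8 and 29.9 in wild type, highest at 30 °C in both. EXPA18 had 34.8, 28.7 and 37.0 in the mutant, and 27.5, 38.0 and 36.2 in wild type. The part of these shifts in the values of EXO, EXLA1 and EXLA2 was not tested. In whole seedlings, fewer cells of a type and less RNA per cell cannot be told apart.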

How the data were processed

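The authors deposited probe-set intensity on a linear scale, scaled between arrays as judged from the values; the summary method is not given in the sources used here. Of 22810 probe sets, 64 controls were left out. The platform annotation lists 1 gene for 13513 probe sets, of which 13436 were named through RefSeq (TAIR10.1). Signals were raised to the floor and put on the log2 scale, and 18227 probe sets were fitted in limma 3.58.1 (R 4.3.3), additive in genotype and temperature, by eBayes with trend and two-sided Benjamini-Hochberg adjustment over all of them. The groups have no replicate arrays, so the 2 residual degrees of freedom mix array noise and any departure from additivity, and p-values measure only the spread between these arrays, whose number limits the precision. The script was tested on simulated data. The 3 genes and the lists were chosen with earlier results of these data known. Named list genes are called genes with the largest changes of 1 direction in both genotypes, plus relatives set beside the 3 genes. Of several probe sets of a gene, the brightest was used. Figures used matplotlib 3.10.9.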

Additional observations from a re-analysis of the deposited data

Results flagged for a closer look

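The difference between mutant and wild type had opposite signs at 30 and 40 °C for EXO, EXLA1 and EXLA2 and for 4 related genes, and this was not tested, since each group has 1 array. As the value at 40 °C less that at 30 °C (log2, mutant minus wild type), it was -1.17 for EXO, -1.97 for EXLA1 and -0.47 for EXLA2. It was -0.67 for EXLA3, -1.02 for XTH16, -0.76 for XTH18 and -0.91 for XTH33. With quantile normalization the sign at 30 °C no longer opposed that at 40 °C for EXO and XTH18 (both -0.09). The value of EXLA2 was -1.81 with no floor.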

How the results depend on the processing

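The 3 genes kept the direction of their temperature changes under all alternatives run: quantile normalization, centring, another floor, no floor or filter, log2(value + 16), a filter on all 6 arrays (which drops EXLA2), limma with no trend, a robust prior, and fits that drop 1 array. EXLA2 moved with the floor: at 40 against 30 °C it had -4.28 with the floor at the 40th percentile, -5.89 with no floor and -4.43 on log2(value + 16), and at 40 against 20 °C -0.87, -2.48 and -1.37. On log2(value + 16), EXLA2 at 30 against 20 °C had 3.06 and EXLA1 at 40 against 30 °C -4.66. Between mutant and wild type, EXLA2 turned to -0.35 with no floor and -0.04 on log2(value + 16); at 40 °C it had -1.52 and -0.56, with -1.81 and -0.84 for the steeper step. EXO and XTH18 at 30 °C turned to -0.09 with quantile normalization, and EXPA16 at 40 °C, at the floor in both genotypes, had -0.35 with no floor and -0.15 on log2(value + 16).

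With each array left out, which leaves 1 residual degree of freedom, EXO ranged from 2.75 to 3.38 at 30 against 20 °C, -5.68 to -4.49 at 40 against 30 °C, -2.62 to -1.42 at 40 against 20 °C and -0.33 to 0.28 between genotypes. EXLA1 ranged from 3.18 to 4.34, -6.03 to -4.23, -2.26 to -0.47 and -0.73 to 0.25 in that order, and EXLA2 from 3.27 to 3.55, -5.43 to -5.01, -2.02 to -1.60 and 0.01 to 0.24. No call between genotypes appeared for them. Of the list genes, 6 were called higher and 7 lower at 30 against 20 °C (5 to 6 and 4 to 5 without single arrays), 5 and 11 at 40 against 30 °C (2 to 5 and 6 to 10), and 2 and 11 at 40 against 20 °C (0 and 3 to 7); the 2 became 0 on centring and 1 with quantile normalization, no floor, the filter on all 6 arrays, no trend or a robust prior. In the fit on all 6 arrays, 22 list genes were tested. The shares of all probe sets called there (limma) were 14.9% higher and 20.7% lower at 30 against 20 °C. They were 24.9% and 17.8% at 40 against 30 °C, and 13.5% and 14.7% at 40 against 20 °C. By Pearson correlation over the 6 arrays, the 5 nearest genes shared XTH16 with the list by distance for EXO and EXLA1, and none for EXLA2. No paired analysis by replicate number was possible because each group has 1 array; the additive fit already compares mutant and wild type within each temperature. The cause of these shifts was not tested.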
